A study of Oryctolagus cuniculus with 3 samples.

Results

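The ubiquitin and proteasome genes described here were those whose symbol begins with PSMA to PSMG, UBE2, UBE3, UBA and a digit, USP and a digit, or UCHL. They were 95 of the 6494 named genes in the deposited table, 37 of them proteasome genes and 58 ubiquitin enzymes. Each gene was read from its brightest probe, a choice that does not use the comparison. Rabbit embryos were recovered on day 3 as morulae, cryopreserved, transferred to recipient does and collected on day 6. Frozen embryos were hybridised directly against vitrified embryos on 3 two-colour arrays, called biological replicates in the labels, and every value below is the log2 ratio of frozen over vitrified. Vitrified morulae passed through a pair of solutions of dimethyl sulphoxide and ethylene glycol, were plunged into liquid nitrogen and were warmed through sucrose. The freezing protocol, the rabbit strain and the number of embryos per RNA sample are not given in the sources used here. All the embryos had been cryopreserved and carried by a recipient, so nothing here sets either method against a fresh embryo.

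Ubiquitin is a small protein that cells attach to other proteins as a tag. An E1 enzyme activates it, an E2 enzyme carries it and an E3 ligase places it, while deubiquitinases such as the USP and UCHL families take it off. Proteins that carry ubiquitin chains are recognised by the regulatory particle of the proteasome (19S), unfolded by its ATPase ring and cut inside the barrel of alpha and beta subunits (20S). In early embryos the system is known for clearing maternal proteins and for driving the cell cycle.

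The probes of 5 genes are shown because the results turn on them: UCHL1, PSMA8 and UBE2S had the lowest p-values, PSME1 lay furthest below 0 among proteasome genes and UBE2D1 furthest above 0 among ubiquitin enzymes. Each probe has 60 bases and is printed 5′ to 3′ from the scanner files. For UCHL1 and PSMA8, capitals mark the bases that both printed probes of the gene share, since values from overlapping probes are not independent. The probes of UCHL1 begin at transcript positions 496 and 499 by the files' start column and share 57 bases. Those of PSMA8 begin at 571 and 611 and share 20 bases. An open reading frame ran along every one of these probes.
UCHL1 at 496: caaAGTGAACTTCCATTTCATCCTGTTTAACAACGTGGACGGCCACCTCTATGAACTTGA
UCHL1 at 499: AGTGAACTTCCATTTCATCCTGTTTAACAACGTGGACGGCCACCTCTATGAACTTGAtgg
PSMA8 at 571: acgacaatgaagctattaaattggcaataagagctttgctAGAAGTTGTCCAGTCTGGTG
PSMA8 at 611: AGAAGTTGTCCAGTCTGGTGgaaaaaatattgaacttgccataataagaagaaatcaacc
UBE2S: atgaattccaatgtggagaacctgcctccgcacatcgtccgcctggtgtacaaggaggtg
PSME1: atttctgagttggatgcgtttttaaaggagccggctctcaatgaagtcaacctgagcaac
UBE2D1: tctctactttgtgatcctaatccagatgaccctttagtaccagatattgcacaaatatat

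Most members lay close to equality between frozen and vitrified embryos. The mean log2 ratio was within 0.5 of 0 for 90 of the 95 members, and a mean beyond 0.5 was found for 3.65% of all named genes. No member passed the adjusted threshold of 0.05 in limma's moderated test against 0 over the 3 arrays, and of all 22839 probes 0 did (0.0%). At an unadjusted p under 0.05 limma called 3 members, against 272 of the 6494 genes (4.19%) and 1020 of the 22839 probes (4.47%). The member above 0 was PSMA8, where the share over all genes was 1.42%, and the members below 0 were UCHL1 and UBE2S, where it was 2.77%. With 3 arrays the smallest p that exact permutation of signs allows is 0.25, so no such test was made.

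The arrays themselves disagreed. Over all 22839 probes replicate 1 correlated at -0.36 with replicate 2, which has the dyes swapped, and at -0.01 with replicate 3, while replicates 2 and 3 correlated at 0.48. Over the 95 members the same correlations were -0.32, 0.01 and 0.56. The direction of the replicate 2 column is likely and not stated: its 10 spike-in probes correlated at -1.0 with those of replicates 1 and 3, as a column already turned to frozen over vitrified would if each spike-in mix kept its dye. Values with the sign of replicate 2 turned, called the turned direction, are therefore given beside the families and for some classes and members. Members without a turned value may depend on that sign too. Markers of red blood cells moved with the same split. The 3 measured genes of the 10 listed had a summed processed intensity of 35511 in frozen and 6467 in vitrified embryos on replicate 1, and of 6454.5 in frozen and 56631 in vitrified embryos on replicate 3. Their median log2 ratio was 1.88, -2.23 and -1.79 on replicates 1, 2 and 3, and their part in the members' values was not tested. The 2 uterine markers measured of 6 had a median of -0.41, and the 3 immune markers of 8 one of 0.029.

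Trophoblast and epiblast markers, which a day 6 embryo should hold, were measured with probes of unlike brightness. The brightest were KRT8 at a mean log2 signal of 13.97 and POU5F1 at 12.59. The dimmest were HAND1 at 5.60 and ETV4 at 5.61. The 7 trophoblast markers measured of 12 had a median log2 ratio of 0.098. The 4 epiblast markers of 8 had a median of -0.35 and the 5 hypoblast markers of 8 one of -0.99. Among the epiblast markers POU5F1 stood at -0.96 (unadjusted p = 0.0086, adjusted p = 0.827 in limma). ETV4, LIN28A and DPPA5 stood at -0.58, -0.12 and 0.13, so the epiblast markers did not fall together. In these whole-embryo samples fewer cells of a type and less RNA per cell cannot be told apart.

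**Figure D1:**
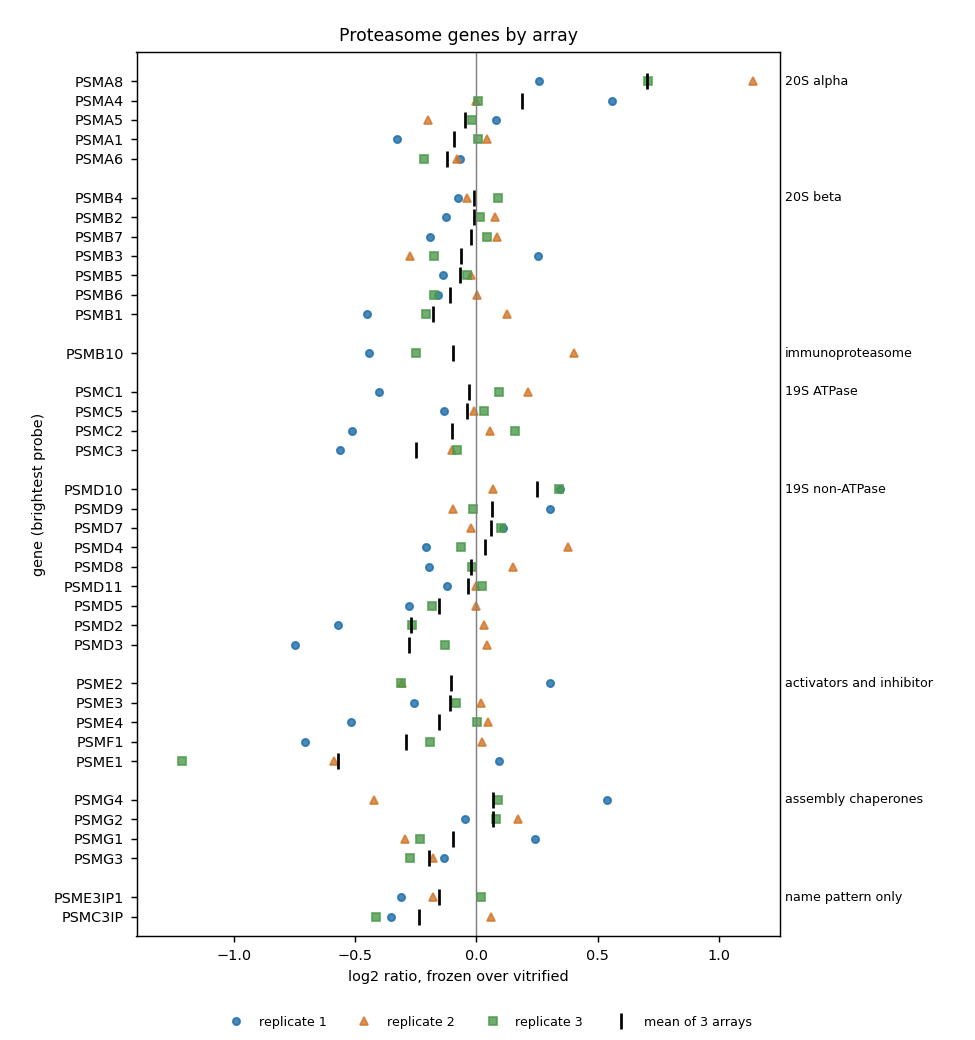
Log2 ratio of frozen over vitrified embryos (x axis) for the 37 proteasome genes (y axis, grouped by role), with 1 symbol per array and a bar for the mean of the 3 arrays. Most means sit left of 0 by less than the spread of the arrays, with PSMA8 far to the right and PSME1 far to the left.

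Among the 20S alpha subunits, which form the gated outer rings of the barrel, PSMA8 stood apart. PSMA8 is the alpha subunit of germ cells in mice, where it stands in for the general subunit PSMA7. It gave a processed intensity of 653 in frozen and 546 in vitrified embryos on replicate 1, and 418 in frozen and 256 in vitrified embryos on replicate 3. The log2 ratio was 0.26, 1.14 and 0.71 on replicates 1, 2 and 3, so that frozen embryos were higher on every array. The mean was 0.70 ± 0.44 (SD, n = 3), or 1.63-fold, with an unadjusted p of 0.015 and an adjusted p of 0.895 in limma. The second probe, which overlaps the first as printed above, gave a mean of 0.71. The result rests on the direction of replicate 2, since with that sign turned the mean was -0.057.

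The other 4 alpha subunits lay between -0.12 and 0.19. PSMA6 was lower in frozen embryos on each array, at -0.067, -0.082 and -0.22 (mean -0.12 ± 0.082), and its 7 probes all had means below 0. PSMA4 was at 0.56 on replicate 1 and within 0.01 of 0 on the other arrays. The 4 probes of PSMA5 disagreed in sign, with means between -0.054 and 0.015. The mean of PSMA6 exceeded its SD between arrays, and those of PSMA1, PSMA4 and PSMA5 did not.

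The beta subunits hold the cutting sites. All 7 had a mean below 0, with a median of -0.065 and a range of -0.18 to -0.0088, and 2 of them had a mean larger than the SD between arrays. Over all genes 53.3% of means lay below 0, and 58.8% in the turned direction. In the turned direction 5 of the 7 lay below 0, and PSMB3 and PSMB4 stood at 0.12 and 0.018. The catalytic subunits PSMB5, PSMB6 and PSMB7 had means of -0.067, -0.11 and -0.022. PSMB5 was below 0 on each array, at -0.14, -0.024 and -0.040. PSMB1 lay lowest, at -0.45 on replicate 1, 0.12 on replicate 2 and -0.21 on replicate 3, a mean of -0.18 ± 0.29 that crosses 0 between arrays. PSMB4 had 5 probes whose means ran from -0.0088 to 0.036, and PSMB6 had a probe at -0.11 and another at 0.0038, so the sign of these small values depends on the probe.

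Of the immunoproteasome subunits, which replace the catalytic ones in immune cells and after interferon, PSMB10 was in the table. Its processed intensity was 65.0 in frozen and 88.4 in vitrified embryos on replicate 1, and 38.9 in frozen and 46.2 in vitrified embryos on replicate 3. Its log2 ratio was -0.44, 0.40 and -0.25 on replicates 1, 2 and 3, and the arrays pointed both ways. PSMB8 and PSMB9 were among 12 genes that fit the name rule and have a probe on the array but none in the table. None of the 12 had a probe well above background in all 4 channels of the scanner files, and for 6 of them no channel was well above background.

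The ATPases of the 19S particle thread substrates into the barrel, and all 4 measured lay below 0 in the mean, with a median of -0.068. All 4 also lay below 0 in the turned direction, with a median of -0.15. The shares of all genes below 0 were 53.3% and, in the turned direction, 58.8%. PSMC3 was below 0 on each array, at -0.56, -0.10 and -0.081 (mean -0.25 ± 0.27). PSMC1 lay nearest to 0, at -0.40, 0.21 and 0.094 (mean -0.031 ± 0.32). The 4 values on replicate 1 had a median of -0.46, against 0.022 on replicate 2 and 0.062 on replicate 3, so these genes were lowest on replicate 1.

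The 9 non-ATPase genes had a median of -0.022, with 5 below and 4 above 0. PSMD10, known as gankyrin, a chaperone for assembly of the 19S base, had a processed intensity of 564 in frozen and 445 in vitrified embryos on replicate 1, and of 558 in frozen and 441 in vitrified embryos on replicate 3. Its log2 ratio was 0.34, 0.068 and 0.34 (mean 0.25 ± 0.16, unadjusted p = 0.12, adjusted p = 1.00 in limma), above 0 on every array. PSMD5, another base chaperone, was below 0 on every array, at -0.28, -0.0029 and -0.18. The scaffold PSMD2, with 5 probes between -0.28 and -0.26, had a mean of -0.27 ± 0.30. The lid subunit PSMD3 lay lowest, at -0.75, 0.043 and -0.13 (mean -0.28 ± 0.41). For PSMD2 and PSMD3 the SD between arrays exceeded the mean.

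The caps that open the barrel in place of 19S, and the inhibitor PSMF1, had the lowest median of the proteasome classes with more than 2 genes, at -0.16 with all 5 means below 0 (4 of 5 in the turned direction) and none of 1 sign on every array. Of all genes 53.3% had a mean below 0 (58.8% in the turned direction) and 22.3% were of 1 sign. PSME1, which builds the PA28 cap with PSME2, had a processed intensity of 53.1 in frozen and 49.8 in vitrified embryos on replicate 1, and of 44.5 in frozen and 103 in vitrified embryos on replicate 3. Its log2 ratio was 0.095, -0.59 and -1.21 (mean -0.57 ± 0.65, unadjusted p = 0.078, adjusted p = 1.00 in limma). Its partner PSME2, with 5 probes in close agreement, gave 0.30, -0.31 and -0.31 (mean -0.10 ± 0.35). Both partners were higher in frozen embryos on replicate 1 and lower on the other arrays. The hypoblast markers followed a similar order in their medians, at -0.27, -0.81 and -1.76 on replicates 1, 2 and 3. Their summed intensities were 1499 in frozen and 1214 in vitrified embryos on replicate 1. On replicate 3 they were 1126 in frozen and 3882 in vitrified embryos. Of the 5 genes, APOA1 and APOB followed that order, RBP4 was lowest on replicate 2, and GATA4 and CER1 were nearest to 0 there. The part of the hypoblast markers in the value of PSME1 was not tested. PSME3 of the nuclear cap, PSME4 and PSMF1 had means of -0.11, -0.16 and -0.29.

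The assembly chaperones PSMG1 to PSMG4 help the barrel form, and had means of -0.095, 0.069, -0.20 and 0.069. PSMG3 was below 0 on each array, at -0.14, -0.18 and -0.28 (mean -0.20 ± 0.072, unadjusted p = 0.18, adjusted p = 1.00 in limma). PSMG4 swung from array to array, at 0.54, -0.42 and 0.088, and its 5 probes gave means between 0.039 and 0.081, so the swing was common to all the probes. PSMC3IP and PSME3IP1 match the name pattern and are partners of proteasome subunits by name, not subunits. Their means were -0.23 and -0.16. In the turned direction PSMG3 had a mean of -0.077 and PSMG2 one of -0.047.

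**Figure D2:**
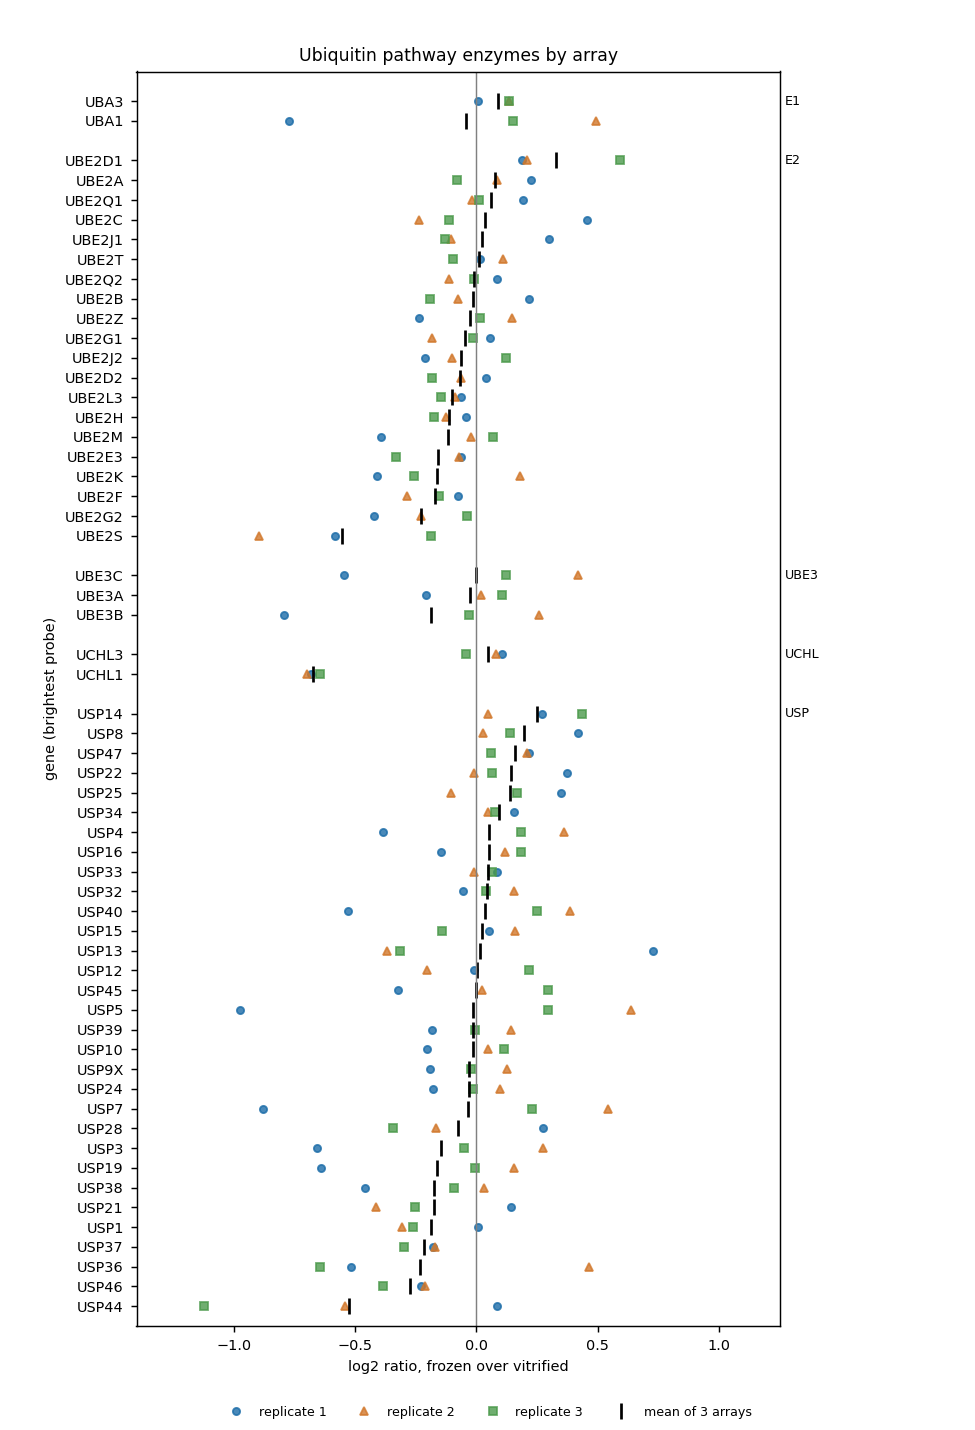
Log2 ratio of frozen over vitrified embryos (x axis) for the 58 ubiquitin enzymes (y axis, grouped by class), with 1 symbol per array and a bar for the mean of the 3 arrays. UCHL1 has its 3 symbols together near -0.67, while USP5, USP7 and UBA1 have replicate 1 on the left of 0 and the other arrays on the right.

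UCHL1, a ubiquitin hydrolase best known from neurons and germ cells, was the ubiquitin enzyme with the closest agreement between arrays at a sizeable difference. The processed intensity was 53.2 in frozen and 85.2 in vitrified embryos on replicate 1, and 54.4 in frozen and 85.0 in vitrified embryos on replicate 3. The log2 ratio was -0.68, -0.70 and -0.64, all lower in frozen embryos and nearly equal. The mean was -0.67 ± 0.027 (SD, n = 3), or 1.60-fold lower, with an unadjusted p of 0.0024 and an adjusted p of 0.809 in limma. Its 4 probes had means between -0.67 and -0.50, and the mean over them was -0.60 ± 0.039, with an SD between probes of 0.15 that is larger than the SD between arrays. The probes are dim, at a mean log2 signal of 6.08 for the brightest. Normexp background correction and loess of the scanner files, applied together, gave a mean of -0.21 for replicates 1 and 3. With the sign of replicate 2 turned it was also -0.21. Its relative UCHL3, with 3 probes, lay at 0.10, 0.081 and -0.042 (mean 0.048 ± 0.079).

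The E1 enzymes start the cascade. UBA1, the main activator of ubiquitin, gave -0.77, 0.49 and 0.15, a mean of -0.042 ± 0.65 made of opposed arrays. UBA3, the catalytic part of the activator of the ubiquitin-like protein NEDD8, lay above 0 on each array at 0.0046, 0.13 and 0.13 (mean 0.091 ± 0.074), and its mean was 0.00076 in the turned direction. Neither is told apart from 0 by these arrays.

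The E2 enzymes leaned below 0 in the direction used here and not with the sign of replicate 2 turned. Of 20, 14 had a mean below 0, where the share over all genes was 53.3%, and the median was -0.055. In the turned direction 9 of 20 lay below 0, where the share over all genes was 58.8%, and the median was 0.011. On all arrays 6 were lower in frozen embryos and 1 was higher, where the shares over all genes were 11.6% and 10.7%. The turned direction gave 1 lower and 1 higher on all arrays. UBE2S, which extends chains made by the anaphase-promoting complex, lay lowest. Its processed intensity was 3779.7 in frozen and 5665 in vitrified embryos on replicate 1, and 5677 in frozen and 6459 in vitrified embryos on replicate 3. The 3 log2 ratios were -0.58, -0.89 and -0.19, lower in frozen embryos each time by an amount that varied. The mean was -0.55 ± 0.35 (SD, n = 3), or 1.47-fold lower, with an unadjusted p of 0.023 and an adjusted p of 0.983 in limma. It has 1 probe, and with the sign of replicate 2 turned the mean was 0.041. UBE2C, which starts the chains that UBE2S extends, had a mean of 0.035 ± 0.37 over 5 probes in close agreement, and its arrays pointed both ways.

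The other E2 enzymes below 0 on each array differed by less. UBE2G2, of the pathway that removes misfolded proteins from the endoplasmic reticulum, gave -0.42, -0.23 and -0.038. UBE2F, which carries NEDD8, gave -0.074, -0.28 and -0.15 (mean -0.17 ± 0.11), and with the sign of replicate 2 turned 0.019. The second NEDD8 carrier, UBE2M, had a mean of -0.12 ± 0.25. UBE2E3 gave -0.065, -0.073 and -0.33, UBE2H gave -0.041, -0.13 and -0.18, and UBE2L3 had a mean of -0.10 ± 0.041. None of these E2 enzymes passed limma's test even unadjusted. UBE2G2, UBE2E3, UBE2H and UBE2L3 had means of -0.077, -0.11, -0.031 and -0.040 in the turned direction.

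UBE2D1, a carrier that works with many RING ligases, was the E2 enzyme furthest above 0. Scanned intensities after processing were 798 in frozen and 701 in vitrified embryos on replicate 1, and 911 in frozen and 605 in vitrified embryos on replicate 3. The log2 ratios were 0.19, 0.21 and 0.59, higher in frozen embryos each time. The mean was 0.33 ± 0.23 (SD, n = 3), or 1.26-fold, with an unadjusted p of 0.075 and an adjusted p of 1.00 in limma. Its 5 probes had means between 0.30 and 0.34. The near relative UBE2D2 had a mean of -0.068 ± 0.11, on the other side of 0.

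The UBE3 ligases UBE3A, UBE3B and UBE3C were all below 0 on replicate 1, at -0.21, -0.79 and -0.54, and all above 0 on replicate 2. Their means were -0.028, -0.19 and -0.0011, each smaller than its SD between arrays. All 3 also lay below 0 in the turned direction, with a median of -0.28. Of all genes 58.5% lay below 0 on replicate 1 and 42.9% on replicate 2. For the means that share was 53.3%, and 58.8% in the turned direction. The sign of UBE3A also differed among its 3 probes.

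The USP deubiquitinases, the largest class with 31 genes, were balanced, with 17 means below 0 and 14 above and a median of -0.014. On all arrays 4 were higher in frozen embryos and 2 were lower, where the shares over all genes were 10.7% and 11.6%. The turned direction gave 3 higher and 7 lower on all arrays, so this lean depends on the sign of replicate 2. Those of 1 sign were then 32.3% of the class, where the share over all genes was 26.4%. USP14, which trims chains on the proteasome itself, was the highest. The processed intensity was 3729.7 in frozen and 3098 in vitrified embryos on replicate 1, and 3568 in frozen and 2639 in vitrified embryos on replicate 3. Its log2 ratio was 0.27, 0.048 and 0.43 (mean 0.25 ± 0.19, unadjusted p = 0.14, adjusted p = 1.00 in limma), and its 5 probes had means between 0.21 and 0.32.

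USP8, which acts on endosomes, gave 0.42, 0.028 and 0.14. USP47 gave 0.21, 0.21 and 0.061 (mean 0.16 ± 0.087) with its brightest probe, and its 3 probes had means from 0.16 to 0.54. USP34 gave 0.15, 0.048 and 0.076. By their brightest probes these enzymes, like USP14, were above 0 on every array, with means below that of USP14. Each also had another probe below 0 on an array. These were at -0.25 for USP8 on replicate 2, -0.033 for USP47 on replicate 1 and -0.054 for USP34 on replicate 3. For USP14 such a probe was at -0.0069 on replicate 1. USP47 had a mean of 0.023 in the turned direction.

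USP44, a deubiquitinase of the spindle checkpoint, lay lowest of the USP class. Its processed intensity was 247 in frozen and 233 in vitrified embryos on replicate 1, and 150.0 in frozen and 326 in vitrified embryos on replicate 3. The log2 ratio was 0.084, -0.54 and -1.12 (mean -0.53 ± 0.60, unadjusted p = 0.081, adjusted p = 1.00 in limma). It has 2 probes, with means of -0.53 and -0.51. The order of the arrays is that of PSME1 and of the medians of the hypoblast markers, though not of each marker. Replicate 1 was nearest to 0 or above it and replicate 3 furthest below. USP46 was lower in frozen embryos on each array at -0.23, -0.21 and -0.38, and so was USP37 at -0.18, -0.17 and -0.30, both from dim probes at mean log2 signals of 5.61 and 6.10. A second, dimmer probe of USP37 gave -0.74, 0.35 and -0.35. The turned means were -0.17 for USP44, -0.13 for USP46 and -0.10 for USP37, and that of PSME1 was -0.18.

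**Figure D3:**
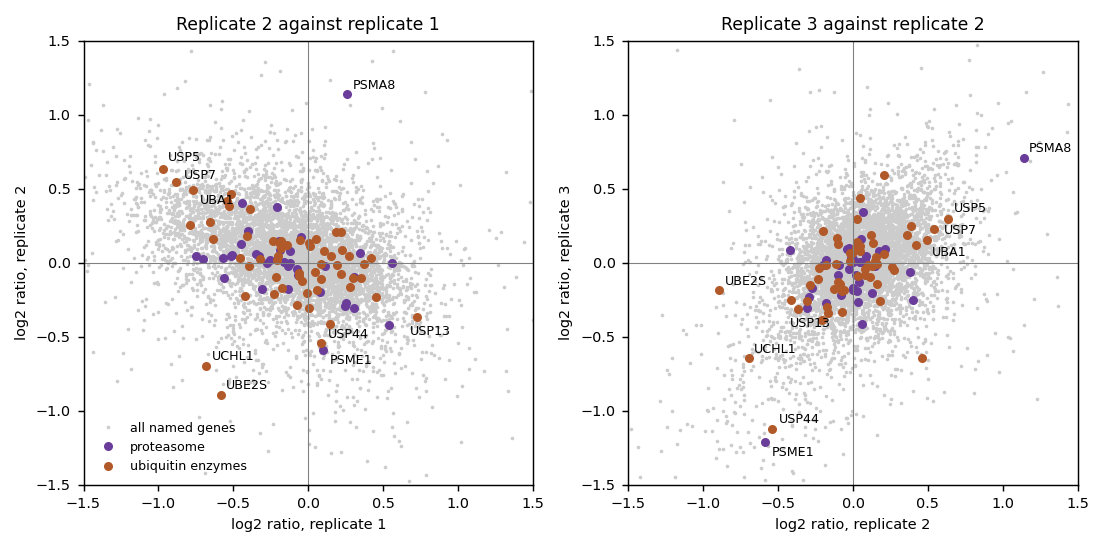
Log2 ratio of frozen over vitrified embryos on replicate 2 against replicate 1 (left) and on replicate 3 against replicate 2 (right), with proteasome genes, ubiquitin enzymes and, in grey, all named genes within 1.5 of 0. On the left the members run from upper left to lower right (r = -0.32), and on the right from lower left to upper right (r = 0.56).

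Some of the widest values in these families were means of opposed arrays. USP7, which stabilises many nuclear proteins, had a processed intensity of 1296 in frozen and 2387 in vitrified embryos on replicate 1, and of 1486 in frozen and 1266 in vitrified embryos on replicate 3. Its log2 ratio was -0.88, 0.54 and 0.23, and the SD between its 3 probes was 0.041, so the probes agreed on each array and the arrays did not. USP5, which takes apart free ubiquitin chains and was singled out after its values were seen, gave -0.97, 0.63 and 0.30. Its paralog USP13 gave the reverse, 0.73, -0.37 and -0.31, on 5 probes with an SD between them of 0.059. Of the members 62 had opposite signs on replicates 1 and 2 (65.3%), and of all genes 66.0% did, so the members shared this split with the rest of the array. USP7, USP5 and USP13 had means of -0.40, -0.44 and 0.26 in the turned direction.

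The spread between arrays was wider than the spread between probes. Of the members 48 had more than 1 probe and 47 had 1. Over the 36 with 3 or more, the median SD between probes on an array was 0.061 and the median SD of the probe mean between arrays was 0.15, and the second was the larger for 28 of them. The sign of the mean differed between probes for 10 members. USP9X had the widest range of these, with 4 probes from -0.20 to 0.32 and a mean of -0.029 from the brightest. USP12 had probes at -0.12 and 0.0019, and USP16 had 4 from -0.0087 to 0.057.

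**Figure D4:**
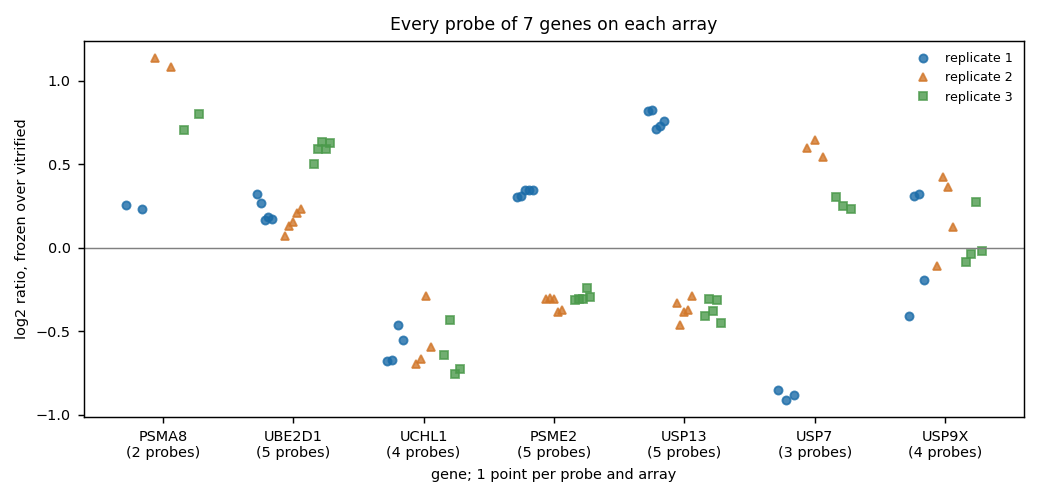
Log2 ratio of frozen over vitrified embryos (y axis) for every probe of 7 genes, with colour and symbol giving the array. Probes of PSME2, USP13 and USP7 lie together on each array and on opposite sides of 0 between arrays, those of UCHL1 lie below 0 on all, and those of USP9X are spread.

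Proteasome genes lay slightly below ubiquitin enzymes in the median of their means, a difference of -0.072, and of -0.042 in the turned direction. On replicate 2 itself the order of the families depended on its direction. Taken array by array, the difference of the medians had a mean no larger than its spread between arrays. The median of the means was -0.093 for the 37 proteasome genes and -0.021 for the 58 ubiquitin enzymes, where all 6494 genes had -0.013. Means below 0 were found for 29 of 37 proteasome genes (78.4%) and for 36 of 58 ubiquitin enzymes (62.1%), where the share over all genes was 53.3%. The turned direction gave 27 of 37 (73.0%) and 34 of 58 (58.6%), where the share over all genes was 58.8%. On single arrays the proteasome median was -0.14, 0.0024 and -0.020, the ubiquitin enzyme median was -0.065, 0.026 and -0.015, and the median of all genes was -0.080, 0.043 and 0.019. The proteasome median was the lowest of these on each array in the direction used here. With the sign of replicate 2 turned it was the highest on that array, at -0.0024 against -0.026 for ubiquitin enzymes and -0.043 for all genes.

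The proteasome median minus the ubiquitin enzyme median was -0.072, -0.024 and -0.0053 on replicates 1, 2 and 3, with a mean of -0.034 ± 0.035 (SD, n = 3 arrays), about as large as its spread. The proteasome median minus that of all genes was -0.057, -0.040 and -0.039 (mean -0.046 ± 0.010). The ubiquitin enzyme median minus that of all genes was 0.015, -0.016 and -0.034 (mean -0.012 ± 0.025). In the turned direction these 3 differences had means of -0.018 ± 0.049, -0.019 ± 0.052 and -0.00078 ± 0.029, each smaller than its spread. The medians of the means were then -0.077 for proteasome genes, -0.035 for ubiquitin enzymes and -0.044 for all genes. Without PSMC3IP, PSME3IP1 and PSMA8, an alternative added after seeing the data, the proteasome median was -0.080.

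**Figure D5:**
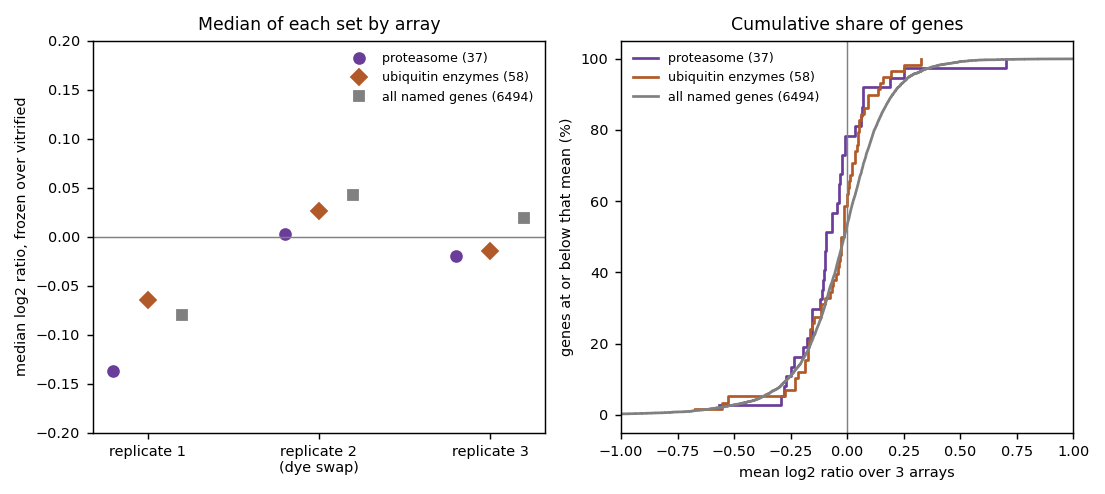
Median log2 ratio of frozen over vitrified embryos for proteasome genes, ubiquitin enzymes and all named genes on each array (left), and the share of genes at or below each mean log2 ratio (right). The proteasome median is lowest on each array as drawn and would be the highest on replicate 2 with its sign turned. Of proteasome means 78.4% lie below 0, and 73.0% with that sign turned.

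By the brightest probe of each gene, few members held 1 sign on all arrays, at a share near that of all genes. They were 7 of 37 proteasome genes (18.9%) and 15 of 58 ubiquitin enzymes (25.9%), 22 of 95 in all (23.2%), where the share over all genes was 22.3%. The turned direction gave 26 of 95 (27.4%), where the share over all genes was 26.4%. Lower on every array were 5 proteasome genes and 9 ubiquitin enzymes, and higher on every array were 2 proteasome genes and 6 ubiquitin enzymes. Other probes of some of these genes lay on the other side of 0 on an array, as for PSMA6, PSMD5 and UBE2H. The spread of the members was also modest, with a median SD between arrays of 0.21 for proteasome genes and 0.19 for ubiquitin enzymes, where it was 0.26 for all genes. The families were also brighter, at median log2 signals of 11.33 and 9.74, where all genes had 8.52. Among members the median SD was 0.30 under a log2 signal of 7 and 0.19 at 7 or more. The part of brightness in the smaller spread was not tested. Members with dim probes leaned further below 0. Of the 12 members with a mean log2 signal under 7, 11 had a mean below 0 (median -0.17), and of the 83 brighter ones 54 did (median -0.031). These counts were 10 and 51 in the turned direction. The share below 0 over all genes was 53.3%, and 58.8% in the turned direction. The share among all genes with dim probes was not taken, so this lean may not be particular to the members.

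Leaving out replicate 1 brought 4 members past the adjusted threshold in limma, where 201 of the 6494 genes (3.1%) passed. PSMA8 was higher in frozen embryos, at 0.92 (adjusted p = 0.021), where the share over all genes was 1.02%. PSME1 at -0.90 (adjusted p = 0.034), UCHL1 at -0.67 (adjusted p = 0.038) and USP44 at -0.83 (adjusted p = 0.041) were lower, where the share was 2.08%. These rest on 2 arrays and on the direction of replicate 2, since with its sign turned those arrays would be opposed for all 4. PSME1, which has 1 probe, and UCHL1 are dim, at mean log2 signals of 5.88 and 6.08. Leaving out replicate 2 or replicate 3 in the same way brought 0 members past the threshold. At an unadjusted p under 0.05 there were then 2 and 3 members, where 1027 and 351 of all 22839 probes passed.

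Other genes of the pathway showed no call after adjustment either, and the 4 named next as higher had an unadjusted p under 0.05 in limma and were higher in frozen embryos on each array. Among the 20 measured deubiquitinases of other families, with a median of 0.13, they were OTUD3 at 0.73 ± 0.55 and SENP2, a protease of a ubiquitin-like modifier, at 0.43 ± 0.33, and the furthest below was BAP1 at -0.29. Of the 24 genes of cullin-RING ligases and the COP9 signalosome (median -0.046), KEAP1, the adaptor that brings NFE2L2 to its ligase, was at 0.40 ± 0.13, and CUL7 was furthest below at -0.24. Of 6 proteasome partners (median -0.042), ZFAND5, a proteasome-binding zinc finger protein, was at 0.41 ± 0.17, and PITHD1 was furthest below at -0.20. The 11 ubiquitin receptors and segregase genes had a median of 0.030, and UBQLN4 was furthest below at -0.26.

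Neither of the remaining lists held a gene with an unadjusted p under 0.05. The 40 other ubiquitin ligases had a median of -0.00065, from NEDD4 at -0.67 ± 1.03, a dim probe, to WWP1 at 0.19. The 9 ubiquitin-like proteins had a median of -0.010, with UFM1 furthest above 0 at 0.14.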

How the data were processed

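Total RNA of day 6 rabbit embryos (100 ng per labelling, per the labels' protocols) was measured on 3 Agilent arrays, with frozen embryos in Cy5 on replicates 1 and 3 and in Cy3 on replicate 2. Agilent Feature Extraction 10.10.1.1 quantified the images, per the submitters' processing notes. The deposited table holds log2 ratios of 22839 non-control probes of 43603 on the array; no source used here gives the filter behind it. The scanner files of replicates 1 and 3 hold processed intensity, with background and dye effects corrected, and the log10 red-to-green ratio, per the file headers. The table equalled that ratio, as log2, within 3e-06. All 22839 probes were well above background in both scanner files and 0 were saturated. The number of arrays limits the precision.

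The table was used as deposited. Probes were named through RefSeq transcripts (8353), gene identifiers (5294) or other fields (236) with the current rabbit RefSeq table, which gave 6494 genes. Limma 3.58.1 (R 4.3.3) tested each ratio against 0 with Benjamini-Hochberg adjustment over all probes, and was tested on simulated data. Tables were joined with pandas 2.3.3 in Python 3.11.15. The members and gene lists were chosen with earlier results of these data known. Values per array are given for members with an unadjusted p under 0.05, of 1 sign on all arrays, at the extremes of a class, or with disagreeing or dim probes; other members were chosen after their values were seen. Alternatives were the sign of replicate 2, the prior, a dye term, each replicate left out, centring, all probes of a gene, scanner-based processing, filters on dim probes, the naming and the membership. Some genes that this rule takes are not reported here.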

Additional observations from a re-analysis of the deposited data

How the results depend on the processing

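Each array sets frozen against vitrified embryos directly, so the test of its log2 ratio against 0 used that pairing. The arrays form 1 group. With the sign of replicate 2 turned, 4 members whose mean exceeded the SD between arrays reversed: PSMA8 (-0.057), UBE2S (0.041), UBE2F (0.019) and USP1 (0.017). Leaving out each replicate gave 0 to 796 probes past the adjusted threshold, and the 796 came without replicate 1. The unadjusted count was then 3720, against 1020 with all arrays. The other settings on the table gave 0 adjusted calls, with unadjusted counts from 351 (without replicate 3) to 1064 (replicate 2 turned). On the remaining 2 arrays 33 to 58 members were of 1 sign, as were 55 with normexp and loess and 57 with no filter on the scanner files; fewer arrays make 1 sign more frequent. Leaving out each replicate, the proteasome median ran from -0.14 to -0.032, the ubiquitin enzyme median from -0.063 to 0.016, and the difference of the medians from -0.073 to -0.018 (-0.018 without replicate 3), around -0.072 with all arrays. The ubiquitin enzyme median was -0.071 with no filter. With symbols of the scanner files alone 7 members were left, 1 of them of 1 sign, the proteasome median was -0.0088 and the difference 0.0050.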
